A study of Mus musculus with 14 samples.

Results

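The genes described here are 45 components of the Wnt signalling pathway: ligands, R-spondins, secreted antagonists, Frizzled receptors, co-receptors, the β-catenin destruction complex and the TCF/LEF factors. They were chosen by name, each represented by its brightest probe set, the one with the highest mean over the arrays, among 18193 genes with at least 1 probe set. A probe set was present for 44 members, Tcf7 having none, and 38 members passed the filter of a signal of 200 on at least 1 array, out of 11815 genes that passed it. RNA was hybridised to 14 Affymetrix mouse arrays. The arrays held 12 osteosarcomas and 1 tumour labelled rhabdomyosarcoma, all arising in p53+/- mice, which keep 1 intact p53 allele, and 1 array of mc3T3. That line is non-tumorigenic and of osteoblast origin, was grown untreated in alpha-MEM with 10% FBS, and served as the control. Strain, age and sex were not given in the sources used here, nor whether the tumours came from separate animals, so the p-values measure the spread between these samples. The control is a single culture of 1 cell line and carries no p53 label, whereas each tumour sample is a piece of tissue.

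Wnt proteins are secreted lipid-modified ligands that bind a Frizzled receptor together with the co-receptor Lrp5 or Lrp6. Without a ligand, a complex built on Axin and Apc lets Gsk3b mark β-catenin for destruction. With a ligand β-catenin accumulates, enters the nucleus and joins TCF/LEF factors on target genes. R-spondins raise the number of receptors at the membrane. Antagonists act outside the cell: Wif1 and the Sfrp proteins bind ligands, whereas Dkk1 and sclerostin (Sost) block the co-receptors. In bone the pathway drives the formation of osteoblasts, and osteocytes secrete sclerostin and Dkk1 as brakes on it.

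Before deposit each array had been scaled to a trimmed mean signal of 500. Array medians lay between 67.1 and 111.1, and a signal of 200 was reached by 33.8 to 40.4% of probe sets. The osteoblast markers measured, 6 of 9 listed, summed to between 71063 and 130988 over the osteosarcomas, against 65577 in mc3T3 and 19042 in the tumour labelled rhabdomyosarcoma. Of these markers 6 reached 200 in every osteosarcoma and 3 in mc3T3, where Ibsp (37.4), Ifitm5 (79.0) and Panx3 (137) stayed below it. The tumour labelled rhabdomyosarcoma reached it for Col1a1 alone, at 18690.08, and its 8 skeletal muscle markers summed to 1329, near the 1074 of mc3T3. Skeletal muscle sums of 258886 in osteosarcoma 6 and 150686 in osteosarcoma 9 stood apart from the 1055 to 34484 of the other osteosarcomas. Macrophage markers (7 genes) summed to between 47300 and 117952 over the osteosarcomas, 139570.02 in the other tumour and 624 in mc3T3, where C1qa read 3.90 and C1qb 2.60. The endothelial sum of 169 in mc3T3 also lay far under the 3925 to 12655 of the osteosarcomas. The part of these cells in the differences from mc3T3 was not tested. In bulk RNA, fewer cells of a type and less RNA per cell cannot be told apart.

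Upstream sequence was taken from RefSeq (GRCm38.p6) for Wif1 and Wnt4, the members called in both comparisons, and for Dkk1, the member with the letters of a TCF/LEF motif and of a RUNX motif upstream of its start. Each run is the 250 bases before the annotated start, written 5′ to 3′ along the gene's strand. Wif1 lies at chr10:121033754-121034003 on the plus strand, Wnt4 at chr4:137277385-137277634 on the plus strand and Dkk1 at chr19:30549497-30549746 on the minus strand. Capitals mark CTTTGAA.
Wif1: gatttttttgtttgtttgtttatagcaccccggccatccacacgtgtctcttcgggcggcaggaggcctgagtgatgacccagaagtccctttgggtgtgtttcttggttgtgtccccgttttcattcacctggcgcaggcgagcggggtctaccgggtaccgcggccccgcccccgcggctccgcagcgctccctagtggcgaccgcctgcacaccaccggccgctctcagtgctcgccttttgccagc
Wnt4: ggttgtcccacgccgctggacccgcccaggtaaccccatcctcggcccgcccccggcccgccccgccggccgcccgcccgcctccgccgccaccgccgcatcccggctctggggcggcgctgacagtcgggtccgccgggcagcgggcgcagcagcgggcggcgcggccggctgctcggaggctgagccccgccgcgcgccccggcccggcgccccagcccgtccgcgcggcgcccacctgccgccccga
Dkk1: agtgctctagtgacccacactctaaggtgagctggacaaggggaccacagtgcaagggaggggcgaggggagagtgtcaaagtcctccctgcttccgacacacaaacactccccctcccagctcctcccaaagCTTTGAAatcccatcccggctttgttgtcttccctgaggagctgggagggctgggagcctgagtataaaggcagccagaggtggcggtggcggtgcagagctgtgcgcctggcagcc
These upstream stretches differ widely in base composition, with 62.8% GC for Wif1, 85.2% for Wnt4 and 60.8% for Dkk1. The letters CTTTGAA or CTTTGAT were searched on both strands of a window of 300 bases around each start (250 before it and 50 after). They stood in 3 of 36 windows of 27 members (8.33%, in Dkk1, Wnt11 and Wnt5b) and in 2842 of 32851 windows of all genes (8.65%). In Dkk1 the match began 117 bases before the start. The RUNX letters TGTGGT stood in 1 member window (2.78%, Dkk1, on the opposite strand 207 bases before the start, apart from the first match) and in 16.8% of all windows. These matches are descriptions of the letters and mark no measured binding.

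Against mc3T3, the osteosarcomas carried more of the ligand Wnt4 and of the antagonists Wif1 and Sfrp4, and less of the receptors Fzd2 and Fzd8, the co-receptor Lrp6, the R-spondin Rspo2 and the factor Tcf7l2. A member was called when its adjusted p in limma's moderated test lay under 0.05 and its difference was at least 1 on the log2 scale, that is, in log2(signal + 30). By that rule 3 of 38 members were higher (7.89%), against 8.59% of all genes tested, and 5 were lower (13.2%), against 4.58% of all genes. The other 30 were not called, and the signs of all 38 differences divided evenly, 19 to 19. Tcf7l2 passed the filter only through mc3T3 and the tumour labelled rhabdomyosarcoma, which favoured a lower call for it. Wnt4 and Wif1, at 25.3 and 4.50 in mc3T3, passed it only through osteosarcomas, which favoured a higher call for them. The median difference was 0.02 over the members and -0.02 over all genes, while the median absolute difference was 1.36 over the members and 0.59 over all genes. Beside these calls, 4 of the 6 osteoblast markers measured (Alpl, Ibsp, Ifitm5 and Panx3) were higher in the osteosarcomas, and their part in the differences was not tested. Because mc3T3 is 1 array, the test assumes that it varies as an osteosarcoma does. With only the 4 osteosarcomas whose identifier starts with c, none of the lower calls remained, although their differences lay between -1.39 and -4.13, and calls over all genes fell from 1556 to 572; with the 6 whose identifier starts with m, 9 members were lower. Without the muscle-rich osteosarcomas 6 and 9, 2 members were higher, Sfrp4 having a difference of 4.32 with an adjusted p of 0.0556, and 5 lower.

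**Figure D1:**
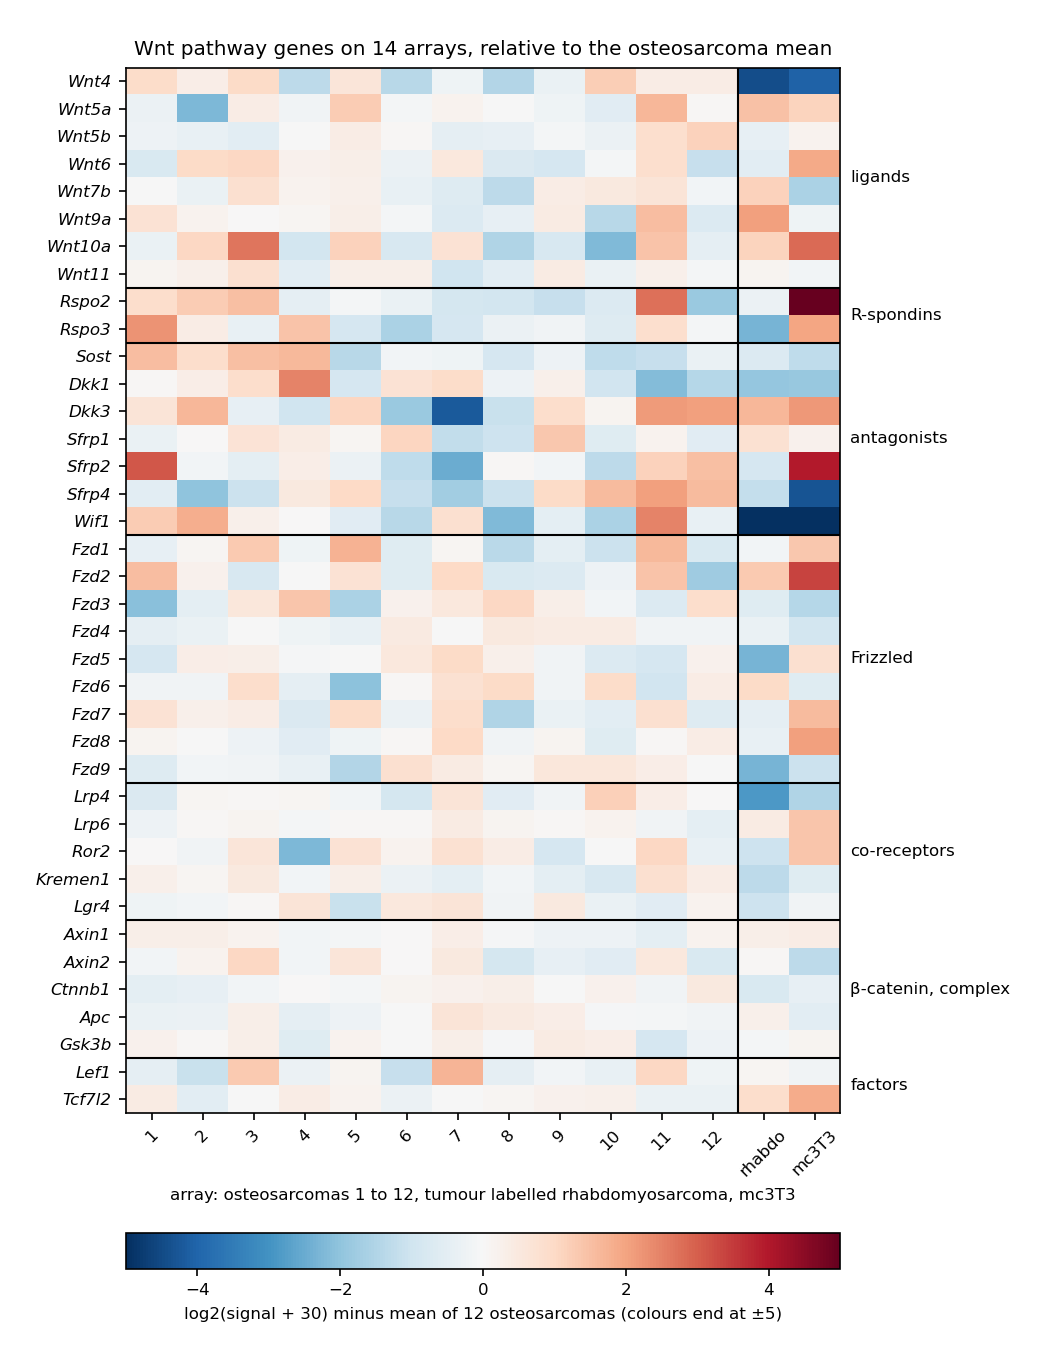
Wnt pathway genes (rows, grouped by role) on the 14 arrays (columns), coloured by log2(signal + 30) minus the mean of the 12 osteosarcomas, with colours ending at ±5. The widest colour range within the osteosarcomas is in the antagonist rows, and the mc3T3 column is darkest for Wif1 and Rspo2, followed by Sfrp4, Wnt4 and Sfrp2.

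The tumour labelled rhabdomyosarcoma carried less Wnt4, Wif1, Lrp4 and Fzd5 than the 12 osteosarcomas. These were 4 lower calls among 38 members (10.5%), against 1.76% of all genes tested. Of these, Wnt4 and Wif1 passed the filter only through osteosarcomas, which favoured a lower call for them here. No member was called higher in limma's test, against 1.19% of all genes. At an unadjusted p under 0.05 in that test there were 2 higher and 8 lower members of 38. Among all 11815 genes tested there were 939 higher and 949 lower at that threshold. Without osteosarcomas 6 and 9 there were 3 lower calls, Wnt4, Wif1 and Lrp4. The median difference was -0.35 over the members and 0.05 over all genes. Beside these calls, all 6 osteoblast markers measured were lower in the tumour labelled rhabdomyosarcoma than in the osteosarcoma mean, and the summed osteoclast markers stood at 3174 against 86179 to 181374. The part of these in the differences was not tested. This comparison and that with mc3T3 share the 12 osteosarcomas, so a gene high in the osteosarcomas is drawn towards opposite signs in them.

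**Figure D2:**
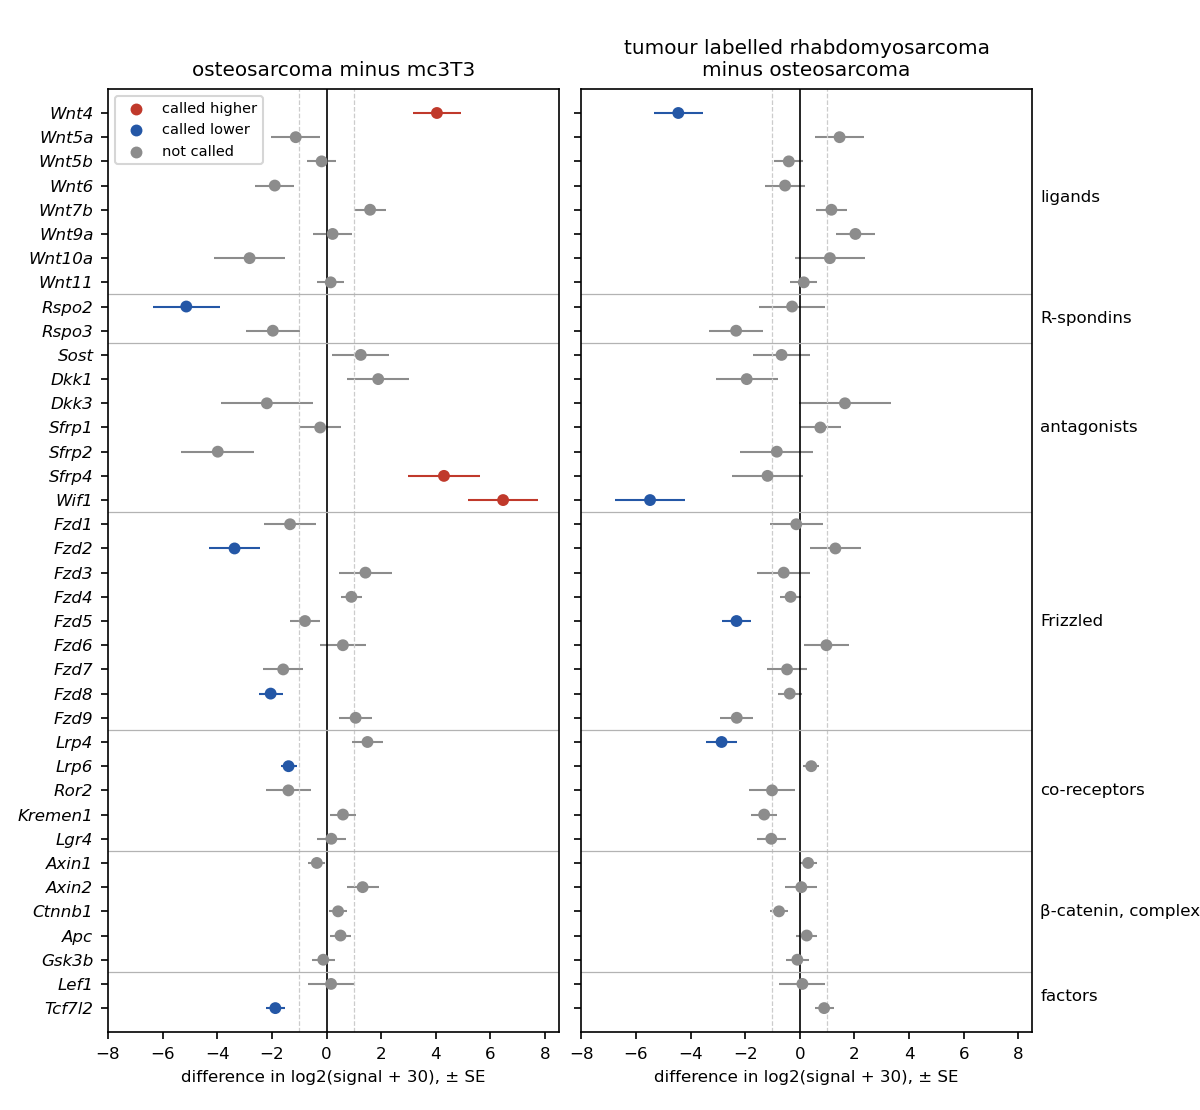
Differences in log2(signal + 30) for the 38 members that passed the filter, with SE: osteosarcoma minus mc3T3 at left and tumour labelled rhabdomyosarcoma minus osteosarcoma at right, called members in colour and dashed lines at ±1. Wif1 lies farthest from 0 in both panels, at 6.46 and -5.48.

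Among the ligands, 8 of 12 listed passed the filter and Wnt4 was the sole one called. Wnt4, a ligand best known from kidney and ovary development, read 296 in the lowest osteosarcoma (8), 1118 at the median and 2093 in the highest (10), with a mean of 1054 ± 597 (SD, n = 12). It read 25.3 in mc3T3 and 11.7 in the tumour labelled rhabdomyosarcoma. Every osteosarcoma stood above both single arrays. The difference was 4.04 ± 0.89 (SE) from mc3T3, with an adjusted p of 0.00717 in limma's test, and the tumour labelled rhabdomyosarcoma differed by -4.45 ± 0.89, with an adjusted p of 0.0133. The call against mc3T3 held under each of the 22 alternatives run. With the tumours of identifier m alone, the second difference was -4.27 (adjusted p 0.0523). A second Wnt4 probe set ranged from 146 to 919.6 among the osteosarcomas, with 37.7 in mc3T3 and 2.80 in the other tumour, the same order of groups.

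Wnt5a, a ligand that signals mostly without β-catenin, read 115 in osteosarcoma 2, 639.6 at the median and 2159 in osteosarcoma 11. Its 1478 in mc3T3 and 1865 in the tumour labelled rhabdomyosarcoma both fell inside that range. Neither difference was called, at -1.13 ± 0.89 (adjusted p 0.446) and 1.46 ± 0.89 (adjusted p 0.46). Its receptor Ror2 read 14.2 to 391.9 over the osteosarcomas, 519 in mc3T3 and 73.0 in the tumour labelled rhabdomyosarcoma, and was not called. Wnt10a, which lies next to Wnt6 in the genome, spread from 14.4 (osteosarcoma 10) through a median of 123 to 1250.5 (osteosarcoma 3). It read 1398 in mc3T3, above every osteosarcoma, and 406 in the tumour labelled rhabdomyosarcoma. Its difference from mc3T3 was -2.82 ± 1.29 with an adjusted p of 0.17, and 0.0443 with the m tumours alone. Wnt6 likewise read 752 in mc3T3, above the 64.0 to 397 of the osteosarcomas, with an adjusted p of 0.098.

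No other ligand was called. Wnt7b ranged from 44.7 to 294 among the osteosarcomas, with 30.8 in mc3T3 and 379 in the tumour labelled rhabdomyosarcoma. On that probe set the tumours all lay above the cell line, with a difference of 1.59 ± 0.58 that did not pass (adjusted p 0.0865). A second, dimmer Wnt7b probe set, which did not pass the filter, read 50.5 in mc3T3, inside the 12.9 to 91.3 of the osteosarcomas. Wnt9a read 431 in the tumour labelled rhabdomyosarcoma, above the 13.5 to 297 of the osteosarcomas (adjusted p 0.162). Its second, dimmer probe set, also below the filter, read 33.1 in that tumour, inside the 3.9 to 64.3 of the osteosarcomas. Wnt5b and Wnt11 had medians of 158 and 133 and were not called. The ligands Wnt2, Wnt2b, Wnt10b and Wnt16 reached no more than 54.7, 74.9, 131 and 37.8 on any array and were not tested.

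Both R-spondins listed that were tested read higher in mc3T3 than in most tumours. Rspo2, which amplifies Wnt signals by keeping Frizzled receptors at the membrane, read 9.30 in osteosarcoma 12, 77.5 at the median and 936 in osteosarcoma 11. Its signal was 4959 in mc3T3 and 86.8 in the tumour labelled rhabdomyosarcoma. The cell line stood above all 12 osteosarcomas, by a difference of -5.13 ± 1.22 for the tumours (adjusted p 0.0116). With the c tumours alone the difference was -4.13 (adjusted p 0.127). A second, dimmer Rspo2 probe set, which did not pass the filter, read 91.2 in mc3T3, inside the 25.3 to 147.6 of the osteosarcomas. Rspo3 ranged from 67.1 (osteosarcoma 6) to 1375 (osteosarcoma 1) with mc3T3 inside that range at 1116, and its 28.3 in the tumour labelled rhabdomyosarcoma lay below every osteosarcoma. Its differences of -1.97 ± 0.99 and -2.33 ± 0.99 did not pass. A second, dimmer Rspo3 probe set, below the filter, read 14.3 in the tumour labelled rhabdomyosarcoma, inside the 1.9 to 51.1 of the osteosarcomas. Lgr4, a receptor for R-spondins, had a median of 1024 in the osteosarcomas and 923 in mc3T3 and was not called.

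**Figure D3:**
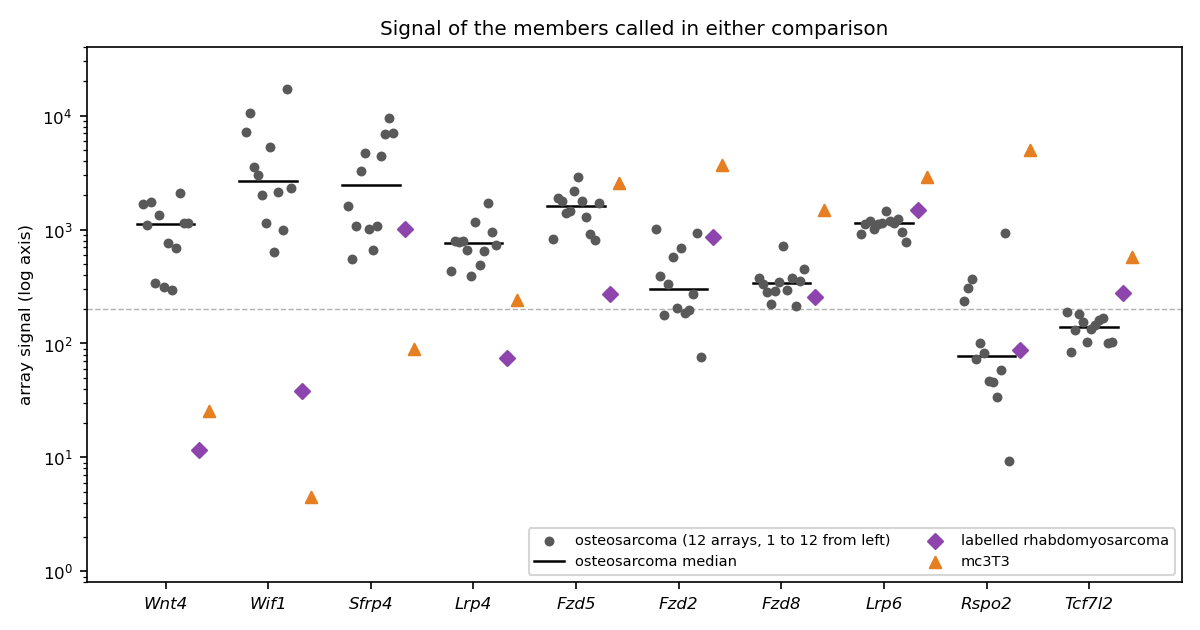
Array signal (log axis) of the members called in either comparison: 12 osteosarcomas as grey points with their median as a bar, the tumour labelled rhabdomyosarcoma as a diamond and mc3T3 as a triangle, with a dashed line at 200. The triangle lies under every osteosarcoma for Wnt4, Sfrp4, Wif1 and Lrp4 and above every one for Rspo2, Fzd2, Fzd8, Lrp6 and Tcf7l2.

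Of the secreted antagonists, 7 were tested, and Wif1 and Sfrp4 were called. Wif1, which binds Wnt ligands directly, read 635 in osteosarcoma 8, 2687 at the median and 17171 in osteosarcoma 11, with a mean of 4675 ± 4896 (SD, n = 12). It read 4.50 in mc3T3 and 38.1 in the tumour labelled rhabdomyosarcoma. No osteosarcoma came near either value. The difference from mc3T3 was 6.46 ± 1.29 (adjusted p 0.00369), called under each of the 22 alternatives run. The tumour labelled rhabdomyosarcoma differed by -5.48 ± 1.29 (adjusted p 0.0322), a call lost with an offset of 100 in place of 30, where the difference was -4.51 and the adjusted p 0.0593.

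Sfrp4, a Frizzled-like decoy, read 547 in osteosarcoma 2, 2435 at the median and 9561 in osteosarcoma 11. It read 89.1 in mc3T3, below all 12 osteosarcomas, and 1003 in the tumour labelled rhabdomyosarcoma, inside their range. The difference from mc3T3 was 4.30 ± 1.31 (adjusted p 0.0414). This call was lost in 8 of 22 alternatives, with adjusted p between 0.0213 and 0.227 over them, and leaving out osteosarcoma 4, 5 or 9 alone gave 0.0521 to 0.0543 with differences of 4.21 to 4.25. Sfrp2, of the same family, went the other way: it read 290.5 in osteosarcoma 7, 1618 at the median, 15724 in osteosarcoma 1 and 28596 in mc3T3. The cell line stood above all 12 osteosarcomas, and the difference of -3.98 ± 1.34 had an adjusted p of 0.064, which became 0.0151 without osteosarcoma 1, 0.0470 without osteosarcoma 7 and 0.0170 with the m tumours alone. In the tumour labelled rhabdomyosarcoma Sfrp2 read 982, inside the osteosarcoma range. Sfrp1 read 101 to 761 in the osteosarcomas, 335 in mc3T3 and 493 in the other tumour and was not called.

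Dkk1, which removes Lrp6 from the surface together with Kremen proteins, read 40.5 in osteosarcoma 11, 322 at the median and 1731 in osteosarcoma 4. It read 55.3 in mc3T3 and 52.2 in the tumour labelled rhabdomyosarcoma, and 11 of 12 osteosarcomas stood above both. The differences of 1.89 ± 1.14 (adjusted p 0.307) and -1.94 ± 1.14 (adjusted p 0.431) did not pass. Kremen1 ranged from 445 to 1428 among the osteosarcomas, with 516 in mc3T3 and, below every osteosarcoma, 305 in the other tumour, without a call. A second Kremen1 probe set, dimmer but past the filter, gave another order. It read 321 in mc3T3, above the 41.1 to 244 of the osteosarcomas, and 78.2 in the other tumour, inside that range. Dkk3, a divergent family member, spread more than any other member, from 24.2 in osteosarcoma 7 through a median of 1307 to 4324 in osteosarcoma 11. Its 4528 in mc3T3 lay just above that range and its 3123 in the other tumour inside it, and neither difference passed (adjusted p 0.431 and 0.683). Dkk2 reached no more than 128 on any array and was not tested.

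Sost, the osteocyte product sclerostin, read 3.0 in osteosarcoma 5, 43.0 at the median and 235 in osteosarcoma 4, with 5.80 in mc3T3 and 23.7 in the tumour labelled rhabdomyosarcoma. A signal of 200 was reached in osteosarcomas 1 (221), 3 (210) and 4 (235), and osteosarcoma 2 read 128, whereas the other 8 read at most 47.5. None of the 6 tumours whose identifier starts with m was among those 4. Neither difference passed, at 1.25 ± 1.04 (adjusted p 0.468) and -0.67 (adjusted p 0.807). The second Sost probe set did not pass the filter and read at most 14.4 in the osteosarcomas, with 9.3 in mc3T3.

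**Figure D4:**
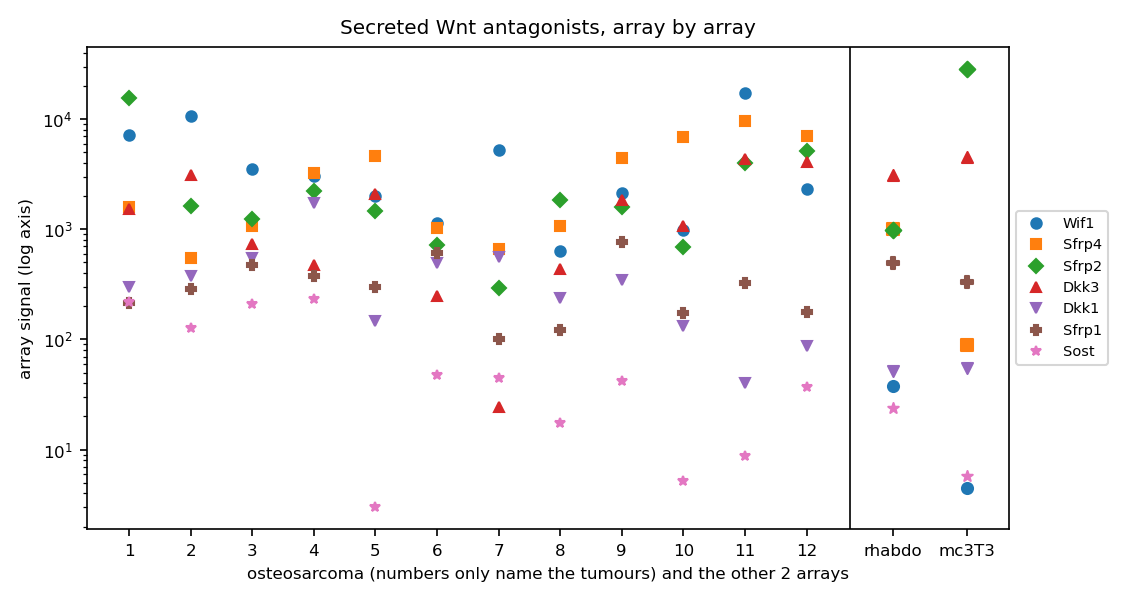
Array signal (log axis) of 7 secreted Wnt antagonists in each osteosarcoma (1 to 12, numbers only naming tumours), the tumour labelled rhabdomyosarcoma and mc3T3. Wif1 lies between 635 and 17171 in the osteosarcomas and at 4.50 in mc3T3, while Sfrp2 is highest in mc3T3 at 28596.

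Frizzled receptors, of which 9 were tested, gave lower calls for Fzd2 and Fzd8 against mc3T3 and for Fzd5 against the osteosarcomas. Fzd2 read 75.9 in osteosarcoma 12, 302 at the median and 1019 in osteosarcoma 1, against 3710.1 in mc3T3 and 864 in the tumour labelled rhabdomyosarcoma. The osteosarcomas lay wholly below mc3T3, by -3.37 ± 0.94 (adjusted p 0.0276), and around the other tumour. The other 2 Fzd2 probe sets read 3056 and 2292 in mc3T3 and at most 966 and 577 in the osteosarcomas. Fzd8 read 213 in osteosarcoma 10, 341 at the median and 712 in osteosarcoma 7, against 1488 in mc3T3 and 255 in the tumour labelled rhabdomyosarcoma. All 12 osteosarcomas again lay below the cell line, by -2.05 ± 0.44 (adjusted p 0.00628). A second, dimmer Fzd8 probe set, which did not pass the filter, read 120.2 in mc3T3, inside the 42.9 to 178.5 of the osteosarcomas. With the c tumours alone the differences were -2.33 for Fzd2 (adjusted p 0.0824) and -1.74 for Fzd8 (adjusted p 0.122).

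Fzd5 read 809.8 in osteosarcoma 11, 1594 at the median and 2916 in osteosarcoma 7, with mc3T3 inside that range at 2574. The tumour labelled rhabdomyosarcoma read 272, below every osteosarcoma, a difference of -2.32 ± 0.55 (adjusted p 0.0326). The second Fzd5 probe set was dim, at 109 to 255 in the osteosarcomas and 91.5 in that tumour, and with the mean over probe sets the difference was -1.45 (adjusted p 0.0587). Without osteosarcomas 6 and 9 it was -2.28 (adjusted p 0.0575), and with the c tumours alone -2.23 (adjusted p 0.310). Fzd9 read 8.60 in the tumour labelled rhabdomyosarcoma, also below every osteosarcoma (40.0 to 304), with a difference of -2.31 ± 0.60 that did not pass (adjusted p 0.0546).

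The other Frizzled receptors gave no call. Fzd7 read 1681 in mc3T3, above the 173 to 1062 of the osteosarcomas (adjusted p 0.176), and Fzd1 read 5131 there, inside their 779 to 6839.7. Fzd4 read 245 to 495 in the osteosarcomas and 168 in mc3T3 (adjusted p 0.13). Medians of Fzd3 and Fzd6 over the osteosarcomas were 149 and 183, and mc3T3 lay inside both ranges. A second Fzd3 probe set that passed the filter gave another order, with 3.6 in mc3T3, below the 37.4 to 383 of the osteosarcomas.

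Of the co-receptors, Lrp6 was called lower against mc3T3 and Lrp4 lower in the tumour labelled rhabdomyosarcoma. Lrp6, which carries the canonical signal with Frizzled, read 777 in osteosarcoma 12, 1130.3 at the median and 1461 in osteosarcoma 7, a mean of 1104 ± 175 (SD, n = 12). It read 2911 in mc3T3 and 1470.0 in the other tumour. The narrow osteosarcoma range lay below both, and the difference from mc3T3 was -1.39 ± 0.29 (adjusted p 0.00575), or -1.39 with the c tumours alone (adjusted p 0.130). The second Lrp6 probe set read 19.2 to 214 in the osteosarcomas and 649 in mc3T3. In the other tumour that probe set read 185, inside the osteosarcoma range. Lrp5, the partner gene of Lrp6, reached no more than 98.3 on any array and was not tested.

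Lrp4, which binds sclerostin at the surface of bone cells, read 388 in osteosarcoma 6, 755 at the median and 1725 in osteosarcoma 10. It read 241 in mc3T3 and 75.3 in the tumour labelled rhabdomyosarcoma, both below every osteosarcoma. The tumour labelled rhabdomyosarcoma differed by -2.86 ± 0.56 (adjusted p 0.012), or -2.77 with the m tumours alone (adjusted p 0.0623) and -2.96 with the c tumours alone (adjusted p 0.0936). The difference of 1.50 ± 0.56 from mc3T3 did not pass (adjusted p 0.0949).

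Inside the cell, the destruction complex and β-catenin gave no call, whereas the factor Tcf7l2 did. Ctnnb1, the gene of β-catenin, read 18572 in osteosarcoma 1, 25866 at the median and 36786 in osteosarcoma 12, with 19322 in mc3T3 and 15281 in the tumour labelled rhabdomyosarcoma. The cell line lay inside the osteosarcoma range and the other tumour below it, and neither 0.42 ± 0.33 (adjusted p 0.443) nor -0.76 ± 0.33 (adjusted p 0.275) passed. The array measures transcript, and β-catenin is regulated mainly as a protein. Axin1, the scaffold, had a median of 954 against 1256 in mc3T3, Gsk3b 1138 against 1142 and Apc 1026 against 752, all without a call.

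Axin2, a scaffold that is also a standard target of β-catenin, read 72.4 in osteosarcoma 8, 152 at the median and 361 in osteosarcoma 3. It read 45.9 in mc3T3, below all 12 osteosarcomas, and 167 in the tumour labelled rhabdomyosarcoma, inside their range. The difference from mc3T3 was 1.32 ± 0.58 and did not pass (adjusted p 0.154), and that of the other tumour was 0.06 ± 0.58 (adjusted p 0.976). On the second, dimmer Axin2 probe set, which did not pass the filter, the osteosarcomas read at most 51.5. There mc3T3 and the tumour labelled rhabdomyosarcoma both lay inside the osteosarcoma range. Lef1, a TCF/LEF factor that T cells also express, read 32.8 in osteosarcoma 6, 86.05 at the median and 415 in osteosarcoma 7. Both other arrays, 93.2 in mc3T3 and 118 in the tumour labelled rhabdomyosarcoma, lay inside that range (adjusted p 0.923 and 0.97). Tcf7l2, a further factor of the family, read 83.7 in osteosarcoma 2, 139 at the median and 187 in osteosarcoma 1, against 573 in mc3T3 and 275 in the tumour labelled rhabdomyosarcoma. Every osteosarcoma lay below both, and the difference from mc3T3 was -1.87 ± 0.35 (adjusted p 0.00231), or -1.99 with the c tumours alone (adjusted p 0.0700). No osteosarcoma reached 200, so Tcf7l2 passed the filter through mc3T3 and the tumour labelled rhabdomyosarcoma alone. A second Tcf7l2 probe set read at most 174 in the osteosarcomas and 653 in mc3T3, with 156 in the tumour labelled rhabdomyosarcoma, inside the osteosarcoma range.

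Among the osteosarcomas themselves, the median spread was largest for the secreted members and smallest for the intracellular ones. Within the secreted members, the ligands had a lower median than the antagonists. The SD of log2(signal + 30) over the 12 tumours had a median of 1.07 over the 17 secreted members, 0.60 over the 14 membrane members and 0.35 over the 7 intracellular ones, beside 0.43 over all genes tested. All 17 secreted members, 11 of the membrane members and 2 of the intracellular ones lay above that all-gene median. The largest SDs were those of Dkk3 (1.84), Sfrp2 (1.46), Sfrp4 (1.42), Wif1 (1.41) and Wnt10a (1.40), and the smallest those of Lrp6 (0.23), Axin1 (0.26) and Ctnnb1 (0.29). Osteosarcoma 11 was the highest tumour for 8 of 38 members, among them Wif1, Sfrp4, Dkk3 and Rspo2, and the lowest for Fzd5, Dkk1, Axin1 and Gsk3b. Osteosarcoma 7 was the highest for 6, namely Fzd5, Fzd8, Lrp6, Axin1, Lef1 and Apc. Osteosarcoma 8 was the lowest for 6, namely Wnt4, Wnt7b, Fzd1, Fzd7, Wif1 and Axin2. Osteosarcoma 3 was the highest for Wnt6, Wnt7b, Wnt10a, Wnt11 and Axin2. The antagonists thus peaked in different tumours: Sfrp2 in osteosarcoma 1, Dkk1 and Sost in 4, Sfrp1 in 9 and the rest in 11.

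Relations between members across the 12 osteosarcomas were computed for 9 pairs, 8 planned and 1 added after the data were seen. None passed after Benjamini-Hochberg adjustment over all 9. Axin2 and Lef1 had Pearson's r of 0.60 (permutation p 0.0387, adjusted 0.174) and Spearman's rho of 0.48 (p 0.120, adjusted 0.361). Without the 2 tumours farthest from the median of Axin2 r was 0.47, and within the 6 m tumours it was 0.13. For Axin2 and Wif1 r was 0.55 (permutation p 0.0666, adjusted 0.200) and rho 0.54 (p 0.0740, adjusted 0.333), or r of 0.49 without the 2 farthest tumours and 0.36 within the m tumours. Sost and Dkk1 had r of 0.41 and 0.37 with the mean level of osteocyte markers (permutation p 0.185 and 0.240). Without osteosarcoma 4 alone these were 0.16 and -0.08, and without the 2 farthest tumours 0.09 and -0.39. Wif1 had r of -0.12 with the same markers (permutation p 0.70). Axin2 had r of 0.21 with Sost and 0.14 with Dkk1 (permutation p 0.52 and 0.66). The T cell marker level and Lef1 had r of -0.50 (permutation p 0.0978, adjusted 0.220). That level was the mean of 3 of 7 listed markers, Cd3d, Cd3g and Cd5, all dim in the osteosarcomas (at most 174, 123 and 255). Cd3d and Cd3g passed the filter only through the tumour labelled rhabdomyosarcoma, which is not part of this relation. These relations share their arrays, and arrays differ in the tissue they hold.

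A further pair, Wnt6 and Wnt10a, was added after the data were seen, as the sole member pair adjacent among protein-coding genes. Across the 12 osteosarcomas r was 0.72 (permutation p 0.00841, adjusted 0.0757) and rho 0.65 (p 0.0251, adjusted 0.226). Without the 2 farthest tumours r was 0.71 (permutation p 0.0268), and within the 6 m tumours 0.31 (exact permutation p 0.574). Pearson's r passed with an offset of 100 (0.776, adjusted p 0.0281), with median scaling (0.746, adjusted p 0.0473) and without osteosarcoma 10 (0.810, adjusted p 0.0358), whereas Spearman's rho passed in none of these settings.

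**Figure D5:**
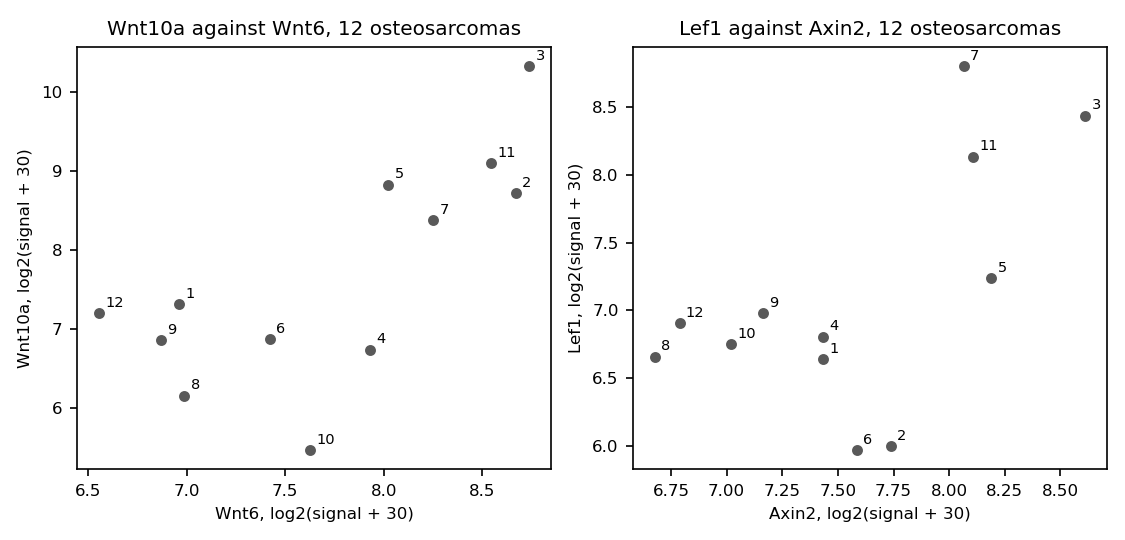
Wnt10a against Wnt6 (left) and Lef1 against Axin2 (right) in log2(signal + 30), 1 numbered point for each of the 12 osteosarcomas. The Pearson r is 0.72 at left and 0.60 at right, neither passing after adjustment over 9 pairs.

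Other genes of the pathway, from a list of 79 of which 51 were tested, gave 3 higher calls against mc3T3 (5.88%, against 8.59% of all genes tested) and 9 lower (17.6%, against 4.58%). The higher genes were Tle4, a co-repressor of TCF/LEF factors, at 3.53 ± 0.53 (adjusted p 0.000427), Nkd2, an inhibitor acting on Dishevelled, at 2.94 ± 0.81 (adjusted p 0.0263), and Dvl1, a Dishevelled, at 1.71 ± 0.35 (adjusted p 0.00451). The lowest were Draxin, a secreted antagonist, at -3.06 ± 0.57 (adjusted p 0.00217), and Tle2, another co-repressor, at -3.05 ± 0.66 (adjusted p 0.00669). They were followed by Dact2, a modulator of Dishevelled, at -2.22 ± 0.52 (adjusted p 0.0113) and Daam2, a formin linked to Dishevelled, at -2.21 ± 0.40 (adjusted p 0.00184). Draxin and Dact2 passed the filter through mc3T3 alone, at 955 and 209, so neither could be called higher against it. The osteosarcomas read at most 157 and 118 for them. Nkd2 passed the filter through osteosarcomas alone, which favoured a higher call for it. Its signal was at most 686 there, 10.2 in mc3T3 and 134 in the tumour labelled rhabdomyosarcoma. The Nkd2 call was lost with an offset of 100 (1.82, adjusted p 0.0662) and with the mean over probe sets (1.78, adjusted p 0.118). Calls were also lost for Dvl1 (1.49, adjusted p 0.102), Tle2 (-3.29, adjusted p 0.0576) and Daam2 (-2.01, adjusted p 0.0892) with the c tumours alone, and for Dact2 with the m tumours alone (-2.04, adjusted p 0.0754). In the tumour labelled rhabdomyosarcoma 1 of the 51 was higher (1.96%, against 1.19% of all genes) and 1 lower (1.96%, against 1.76%). Prickle2, of the planar polarity branch, read 1083 there against 154 to 372 in the osteosarcomas (2.03 ± 0.39, adjusted p 0.0102). Cthrc1, a secreted protein that binds Wnt and Frizzled, read 1930.2 against 4314 to 34397 (-3.13 ± 0.73, adjusted p 0.0318). The Prickle2 call was lost with the c tumours alone (2.41, adjusted p 0.0539), and the Cthrc1 call with median scaling (-3.08, adjusted p 0.0551) and without osteosarcomas 6 and 9 (-3.17, adjusted p 0.0531).

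Of 21 known β-catenin targets listed, 14 were tested, and the osteosarcomas gave 1 higher and 1 lower call against mc3T3, 7.14% each way, beside 8.59% and 4.58% of all genes tested. Gja1, the gap junction protein connexin 43, read 11674 to 29321 against 1542 in mc3T3 (3.55 ± 0.43, adjusted p 7.26e-05). Bmp4, a bone morphogenetic protein, read 117 to 976 against 12297.5 (-4.68 ± 0.79, adjusted p 0.0011). No target was called in either direction for the tumour labelled rhabdomyosarcoma in limma's test, beside 1.19% of all genes higher and 1.76% lower. At an unadjusted p under 0.05 in that test there were 2 higher and 3 lower of the 14, beside 939 and 949 of 11815 genes. Nkd1, Lgr5, Rnf43, Sp5 and Fgf18 did not reach a signal of 200 on any array.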

How the data were processed

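Signals were deposited by the authors as linear array intensity values in a series table of 45101 probe sets, from GCOS per the submitters' processing notes (no version is recorded). Each array's mean without 2% at each end lay between 500.0031 and 500.0044, and each array was rescaled to a mean of 500. Samples were grouped by their titles, because every description field names the cell line.

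Probe sets were named through the platform annotation, updated by Entrez identifier against a gene table of GRCm38.p6: 34945 had 1 symbol, 932 several and 9160 none, beside 64 control sets. The filter (a signal of 200 on at least 1 array) left 22479 probe sets and 11815 genes, each by its brightest tested probe set. limma 3.58.1 in R 4.3.3 fitted log2(signal + 30) in 3 groups, two-sided, with Benjamini-Hochberg adjustment over all genes; spread comes from the 12 osteosarcomas. The offset understates differences of dim genes. The number of arrays limits precision. The fit was tested on simulated data. Relations used 100000 permutations, or all orders for 6 tumours (Python 3.11.15, scipy 1.17.1).

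Members and lists were chosen with earlier results of these data known. Full values are given for called members, the 5 with the largest SD, and Sost, Dkk1, Wif1, Axin2, Lef1, Ctnnb1, Lrp6 and Wnt5a where measured; of other genes, up to 4 per comparison and direction. Alternatives were another offset, scaling, filter and probe set rule, tumours left out, and identifier letters alone.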

Additional observations from a re-analysis of the deposited data

How the results depend on the processing

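No paired analysis was possible because the labels give the groups no shared replicate numbers. Without 1 osteosarcoma at a time, member calls against mc3T3 ran from 2 to 4 higher and from 5 to 6 lower, and those of the tumour labelled rhabdomyosarcoma stayed at 0 higher and ran from 4 to 5 lower. The c tumours alone gave 0 lower members against mc3T3 and 2 in the other comparison; the m tumours alone gave 9 and 2. Among the other pathway genes, calls against mc3T3 were 3 to 4 higher and 9 to 11 lower without 1 tumour, and 3 lower with the c tumours alone. In the tumour labelled rhabdomyosarcoma they were 0 higher with the c tumours alone, 0 lower with median scaling or without osteosarcomas 6 and 9 (a choice made after seeing the data), and 1 to 2 lower without 1 tumour (2 without osteosarcoma 2). Target calls against mc3T3 were 1 to 2 higher without 1 tumour (2 without osteosarcoma 8) and 2 with the c tumours alone. Lower target calls of the tumour labelled rhabdomyosarcoma were 0 to 1 (1 without osteosarcoma 8). Fits on fewer tumours have fewer residual degrees of freedom. Other causes were not tested.

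Differences that were not called changed sign for Lef1 against mc3T3 (-0.19, m tumours alone) and, in the tumour labelled rhabdomyosarcoma, for Sost (0.036, m tumours alone), Axin2 (-0.21, c tumours alone; -0.026 to 0.15 without 1 tumour) and Lef1 (-0.19, c tumours alone; -0.032 without osteosarcomas 6 and 9; -0.0086 to 0.25 without 1 tumour). Relations changed sign for Wif1 with osteocyte markers (0.00737 with the mean over probe sets, 0.517 within the m tumours, -0.358 to 0.0577 without 1 tumour), Axin2 with Sost (-0.283 within the m tumours, -0.166 without the 2 farthest tumours, -0.0302 to 0.381 without 1 tumour), Dkk1 with osteocyte markers (-0.131, -0.391 and -0.0769 to 0.614 likewise) and Axin2 with Dkk1 (-0.00734 to 0.373 without 1 tumour). That of Wnt6 with Wnt10a passed with an offset of 100 (0.776) and median scaling (0.746), and ran from 0.646 to 0.810 without 1 tumour, passing without osteosarcoma 10 alone; its Spearman rho passed in none of these settings. Relations of Tcf7, Nkd1 and Wnt10b could not be run, because Tcf7 had no probe set and Nkd1 and Wnt10b did not pass the filter. Members that never reached 200 have no reliable level on these arrays.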
